A study of Mus musculus with 30 samples.

Results

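The quantity described here is a difference between effects. It is the effect of an antibody against PD-1 (aPD1, over an IgG1 control antibody) on gene levels in Jak1-mutant tumours, minus the same effect in wild-type tumours. It was formed as the log2 fold change of aPD1 over IgG1 in Jak1KO tumours minus that in WT tumours, so a negative value means that the gene responded less, or in the lower direction, in Jak1KO tumours. It uses 20 of the 30 libraries of the series, 5 in each of 4 groups, and was estimated for the 15505 expressed genes among the 55471 counted.

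The groups were Jak1KO tumours given aPD1, Jak1KO tumours given IgG1, WT tumours given aPD1 and WT tumours given IgG1. All grew under the skin of female C57BL/6 mice, aged 6 to 8 weeks, from MC38 cells, a colon carcinoma line that arose in this mouse strain. Jak1KO cells carry a loss-of-function mutation in Jak1, and WT cells carry none. The mutation lies in the inoculated cells only, and the labels name none in the mice. They do not say whether the Jak1KO line is 1 clone. Every mouse received 100 µg of its antibody by vein on days 7, 10 and 13 after inoculation, and about 50 mg of tumour was taken on day 14 for bulk RNA sequencing. Whether every library is its own mouse is not in the labels. The p-values therefore speak of the spread among the samples, part of which may be technical. That spread was estimated over all 30 libraries, so the 10 B2mKO libraries also bear on it.

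JAK1 is a tyrosine kinase bound to the receptors for type I and type II interferons, for the IL-6 family of cytokines and for the cytokines that use the common gamma chain. Interferon gamma, made by activated T cells and NK cells, signals through JAK1 and JAK2 to gamma-activated sequences (GAS) in the promoters of its targets, one of which is the transcription factor IRF1. IRF1 and its relatives bind interferon-stimulated response elements (ISRE), and together these factors raise guanylate-binding proteins, immunity-related GTPases, antigen presentation genes and the PD-1 ligand PD-L1. Blocking PD-1 on T cells releases their cytokine production, and tumour cells without JAK1 cannot read the interferon, while host cells in the same tumour can.

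The promoters of 3 genes named below are shown because they hold these elements in the 250 bases before the gene's start in RefSeq. Both strands were searched, and capitals mark GAS matches (TTCNNNGAA, which reads alike on both) and ISRE matches (TTTC, any pair of bases, then TTTC, or GAAA, any pair of bases, then GAAA on the other strand). The sequences are RefSeq's for build GRCm38.p6, 5′ to 3′ along the gene. Gbp7 lies on the plus strand (chr3:142530086-142530335), Irgm1 on the minus strand (chr11:48871421-48871670) and Irf1 on the plus strand (chr11:53769764-53770013). The gene coordinates given further below are Ensembl's, whose starts can differ by some bases, and the Irgm1 window lies inside its Ensembl span.
Gbp7: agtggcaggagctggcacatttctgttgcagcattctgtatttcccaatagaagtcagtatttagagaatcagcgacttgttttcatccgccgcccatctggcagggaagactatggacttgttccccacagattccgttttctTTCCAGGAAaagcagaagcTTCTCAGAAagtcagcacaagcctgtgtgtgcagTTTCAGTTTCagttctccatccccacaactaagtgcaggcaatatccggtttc
Irgm1: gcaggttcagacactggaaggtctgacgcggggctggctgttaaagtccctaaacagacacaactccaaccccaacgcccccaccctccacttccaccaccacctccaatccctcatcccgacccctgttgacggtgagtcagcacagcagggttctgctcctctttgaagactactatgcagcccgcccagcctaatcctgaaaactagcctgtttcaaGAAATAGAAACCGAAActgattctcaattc
Irf1: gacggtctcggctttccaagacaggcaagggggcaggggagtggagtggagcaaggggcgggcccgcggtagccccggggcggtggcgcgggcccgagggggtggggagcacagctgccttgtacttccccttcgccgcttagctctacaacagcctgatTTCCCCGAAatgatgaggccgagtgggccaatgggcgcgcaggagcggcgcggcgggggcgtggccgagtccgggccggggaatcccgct
Gbp7 has a pair of GAS matches, at -106 to -98 and -87 to -79 from the start, and an ISRE match at -53 to -44. Irgm1 has 2 ISRE matches that overlap each other (-30 to -21 and -24 to -15), and Irf1 has a GAS match at -90 to -82. Among 27025 mouse promoters of this length, 7.18% held a GAS match, 3.04% an ISRE match and 9.83% either. Of the 30 genes on the interferon gamma response list used below, 18 had a promoter in the table, and 13 of those (72.2%) held either motif. Of the 15 genes ranked first by p on the lower side, 12 had a promoter, and 4 of those (33.3%) held either. On the higher side 8 of 10 had a promoter, and 1 of those (12.5%) held either. Among the 11025 tested genes with a promoter the share was 8.44%. A match is a run of letters and not a shown binding site.

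The labels were checked first on the targeted gene. Jak1 stood at 64.9 to 81.9 CPM (counts scaled to a common library size) in the 5 Jak1KO aPD1 libraries and at 64.4 to 77.2 CPM in the Jak1KO IgG1 libraries. It stood at 233 to 249 CPM in the WT aPD1 libraries and at 182 to 255 CPM in the WT IgG1 libraries. All 10 Jak1KO libraries lay below all 10 WT libraries. Jak1 RNA was lower in Jak1KO tumours by a log2 difference of -1.72 ± 0.10 (SE) under aPD1 (edgeR adjusted p = 1.29e-12) and of -1.70 ± 0.10 under IgG1 (edgeR adjusted p = 1.66e-12). Its aPD1 effect differed between the genotypes by -0.02 ± 0.14. Total counts in the 20 libraries were 17629795 to 25658875. WT IgG1 replicate 3 stood apart, with a median distance of 0.532 log2 CPM from its group against 0.109 to 0.215 in the other libraries of these groups. The file header of WT aPD1 replicate 2 names the alignment file of another library, and those counts were used unchanged. MC38 is named a carcinoma line, and 7 genes of simple epithelium that passed the filter summed to 2.33 to 4.92 CPM in Jak1KO aPD1 and 3.14 to 14.9 CPM in Jak1KO IgG1 libraries, against 7.96 to 34 CPM in WT aPD1 and 5.89 to 7.36 CPM in WT IgG1 libraries.

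No gene passed the threshold for the difference itself. The genes ranked first by p were led on the lower side by Gbp7, Gpr132, Tent5c and Cd274. In edgeR's quasi-likelihood test, 0 of 15505 genes (0%) had an adjusted p under 0.05, and the smallest was 0.195. Without adjustment, 1286 genes (8.29%) had a p under 0.05, of which 820 (5.29%) had a lower aPD1 effect in Jak1KO tumours and 466 (3.01%) a higher one. Other tools gave other counts on the same libraries. DESeq2 called 47 genes, 41 of them lower (0.264%) and 6 higher (0.0387%). The limma voom test called 0, and with sample quality weights it called 544, 469 of them lower (3.02%) and 75 higher (0.484%). These weights were 0.0724 for WT IgG1 replicate 3 and 0.0691 for B2mKO aPD1 replicate 2, against 0.564 to 3.02 for the other libraries. With both of those libraries left out, edgeR called 0 genes (smallest edgeR adjusted p = 0.0848). Of the 47 genes called by DESeq2, 45 were also among the 544 called by voom with weights.

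A single WT aPD1 library bore on this count. Without WT aPD1 replicate 4, edgeR called 127 of 15668 genes, 118 lower (0.753%) and 9 higher (0.0574%), and 43 of the 47 DESeq2 calls were among the 127. Without WT IgG1 replicate 4 it called 10 genes. Each of the other 28 libraries of the series, left out in turn, left the count at 0, including WT IgG1 replicate 3 (smallest adjusted p = 0.206, edgeR). Without B2mKO aPD1 replicate 2, which belongs to neither genotype compared, 1782 genes had an unadjusted p under 0.05 and the smallest edgeR adjusted p was 0.126.

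The aPD1 effect was also tested inside each genotype. In Jak1KO tumours 0 genes (0%) passed edgeR's test (174 at an unadjusted p under 0.05, and 0 by DESeq2 or limma voom with or without weights). In WT tumours 581 genes rose (3.75%) and 98 fell (0.632%). These counts depended on the libraries: 214 rose and 15 fell without WT aPD1 replicate 2, 890 rose and 220 fell without WT aPD1 replicate 4, and 60 rose and 3 fell when the spread was taken from the groups of the contrast alone. The difference was negative for 579 of the 581 that rose and positive for all 98 that fell. Since the WT libraries enter both values, this count describes the table and is no separate evidence. A gene that passed in WT tumours and not in Jak1KO tumours is not thereby shown to differ between them. The precision of the difference was limited: its median SE was 0.24 on the log2 scale, the median half-width of its 95% interval was 0.49, and the interval lay within ±1 for 67.8% of genes.

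**Figure D1:**
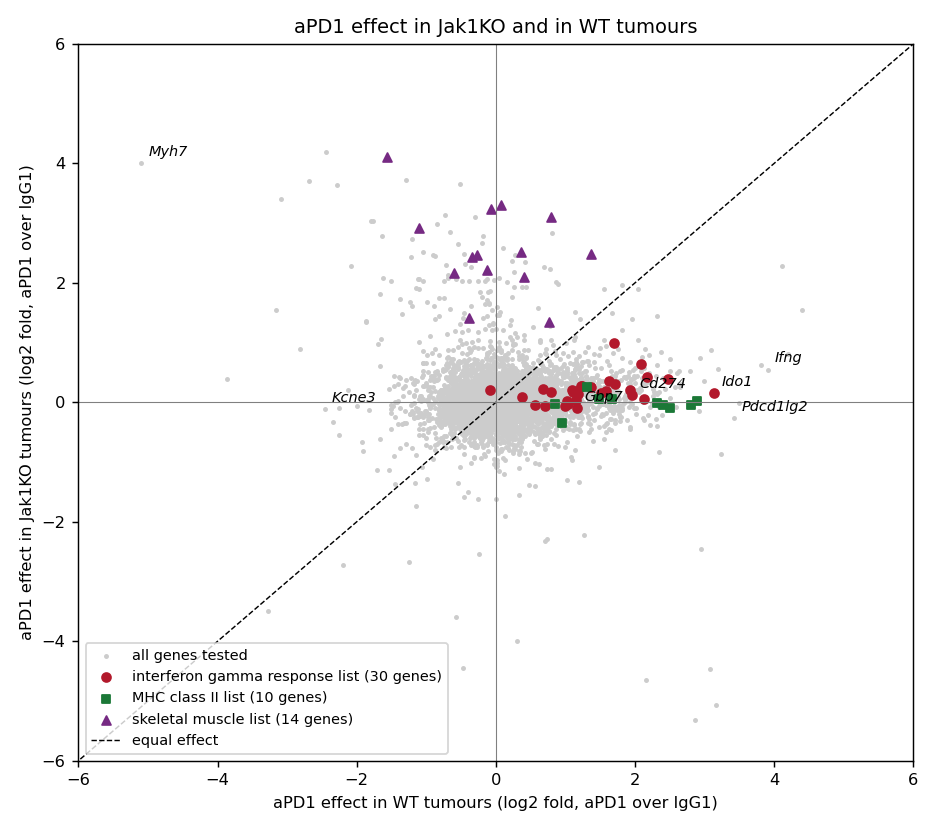
Effect of aPD1 over IgG1 (log2 fold change) on each of the 15505 genes, in WT tumours on the x axis and in Jak1KO tumours on the y axis, with 3 gene lists coloured and the line of equal effect dashed. Interferon gamma response and MHC class II genes lie to the right along the horizontal line at 0, with WT effects up to 3.14 and 2.89, while skeletal muscle genes lie above it.

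Genes of the interferon gamma response had mostly negative differences. Of 30 genes on this list, 29 had a negative difference, with a median of -1.05 against 0.02 over all genes. None passed the adjusted threshold, and 25 of 30 had an unadjusted p under 0.05 in the lower direction, beside 5.29% of all genes, which is the share to set beside each such count below (3.01% on the higher side). In WT tumours 25 of the 30 rose with aPD1, and their effects reached 3.14. In Jak1KO tumours none passed, and the median effect was 0.19. In 12 of the 30, every WT aPD1 library lay above every WT IgG1 library (1.19% of all genes), while 0 of 30 separated this way in Jak1KO tumours (0.187% of all genes). DESeq2 called 6 of the 30 for the difference, voom with weights 22, and edgeR without WT aPD1 replicate 4 called 7. In these settings 0.264%, 3.02% and 0.753% of all genes were called lower. In bulk tissue, fewer cells that express a gene and less RNA per cell cannot be told apart.

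Gbp7, a guanylate-binding protein of cell-autonomous immunity (chr3:142530342-142550149), had the smallest p of all genes tested. It measured 51.3, 30.2, 49.5, 30.4 and 43.9 CPM in Jak1KO aPD1 libraries and 52.7, 36.1, 42.8, 32.9 and 54.7 CPM in Jak1KO IgG1 libraries. In WT tumours it measured 333, 339, 303, 219 and 384 CPM with aPD1 and 130, 151, 136, 190 and 95.1 CPM with IgG1. The Jak1KO groups overlapped throughout and lay below every WT library, and the WT groups did not overlap. The effect was -0.09 ± 0.19 in Jak1KO tumours and 1.17 ± 0.19 in WT tumours (edgeR adjusted p = 0.00117). The difference was -1.26 ± 0.26 (95% interval -1.80 to -0.72, edgeR adjusted p = 0.195). Gbp genes have near-identical copies, so their counts are uncertain.

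Irgm1, an immunity-related GTPase that acts at membranes of infected cells (chr11:48861968-48871683, minus strand), followed the same order. It stood at 131, 86.6, 109, 78.9 and 113 CPM in Jak1KO aPD1 libraries and at 116, 93, 107, 77.8 and 119 CPM in Jak1KO IgG1 libraries. It stood at 437, 541, 546, 308 and 498 CPM in WT aPD1 libraries and at 224, 217, 220, 306 and 173 CPM in WT IgG1 libraries. The WT groups separated only narrowly, with WT aPD1 replicate 4 at 308 CPM beside WT IgG1 replicate 4 at 306 CPM. The difference was -1.02 ± 0.23, made of 0.02 ± 0.16 in Jak1KO and 1.03 ± 0.16 in WT tumours.

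Irf1, a transcription factor of the pathway, also had a negative difference. It measured 224, 182, 194, 179 and 226 CPM in Jak1KO aPD1 libraries against 209, 195, 211, 232 and 202 CPM in Jak1KO IgG1 libraries. In WT tumours it measured 481, 469, 600, 329 and 531 CPM with aPD1 against 280, 258, 385, 303 and 242 CPM with IgG1. Its Jak1KO values overlapped, and in WT only replicate 4 with aPD1 fell within the IgG1 range. The difference was -0.78 ± 0.19 (edgeR adjusted p = 0.195), and DESeq2 gave an adjusted p of 0.0392.

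Ido1, the interferon-induced enzyme that breaks down tryptophan, was near the floor of detection in Jak1KO tumours. It gave 0.257, 0, 0.131, 0 and 0.174 CPM in Jak1KO aPD1 libraries and 0.219, 0.05, 0.047, 0 and 0.209 CPM in Jak1KO IgG1 libraries, from 13 and 11 reads in all. It gave 3.8, 2.53, 4.57, 1.22 and 4.09 CPM in WT aPD1 libraries against 0.38, 0.277, 0.5, 0.31 and 0.352 CPM in WT IgG1 libraries. The WT groups did not overlap, and the WT effect of 3.14 ± 0.37 had the smallest adjusted p of the WT comparison (7.68e-06, edgeR). The smallest adjusted p of any gene in that comparison was 0.00172 in the classic form of edgeR's test and 0.0013 in limma voom. Outside the WT aPD1 group Ido1 reached at most 0.5 CPM. It passed the filter through the group where it was high, so its rank is no separate evidence. With so few reads in Jak1KO tumours the difference of -2.98 ± 1.03 had a 95% interval of -5.07 to -0.89.

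**Figure D2:**
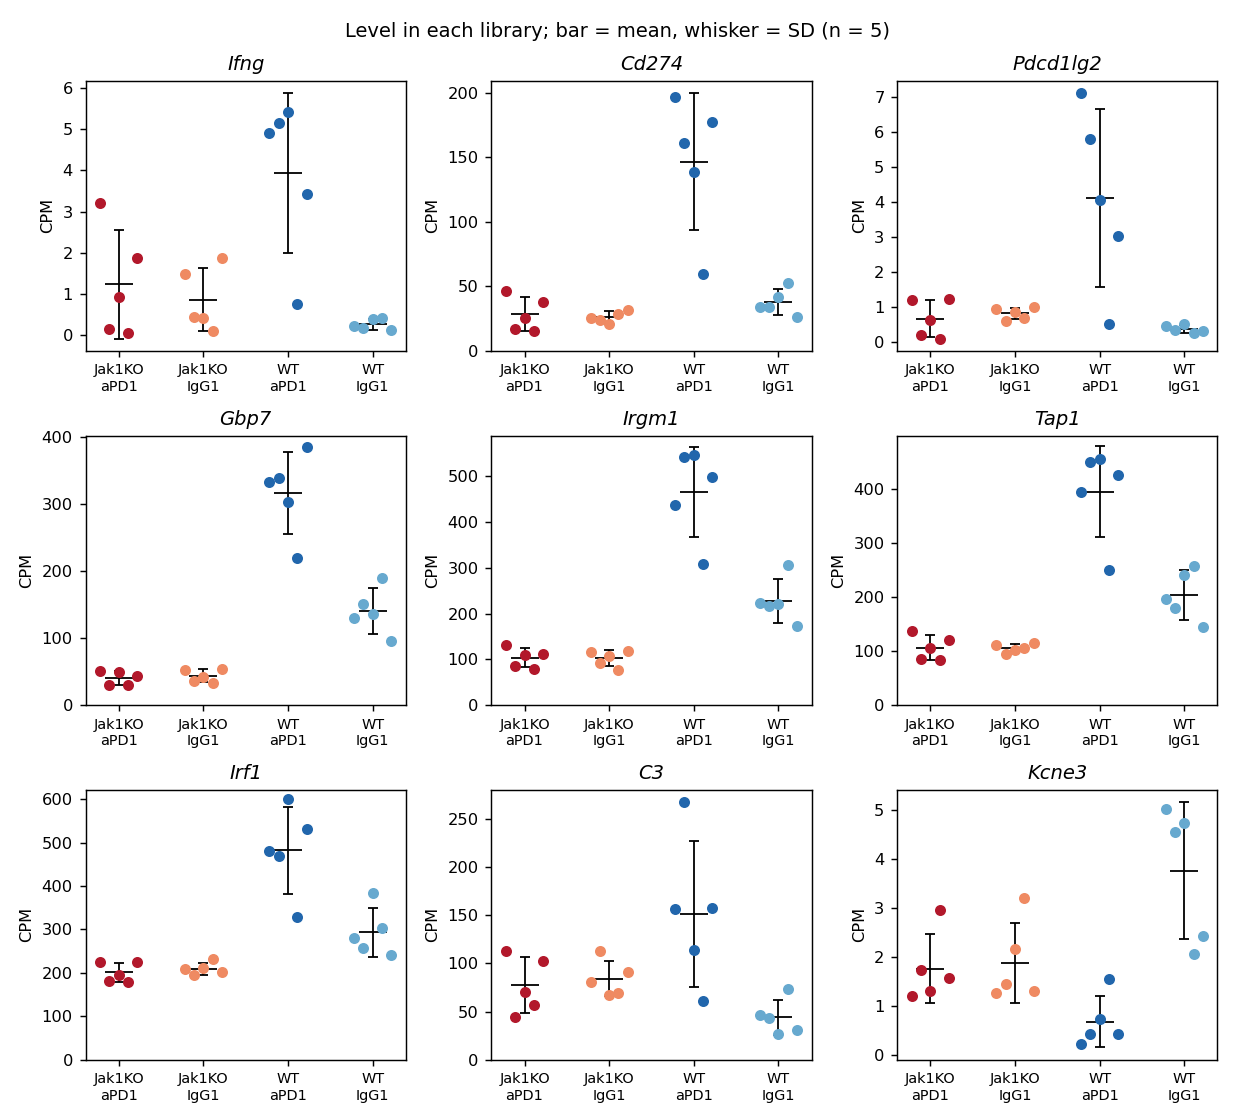
Level of 9 named genes in each of the 20 libraries (CPM, linear axes), with points for libraries, the bar for the mean and whiskers for the SD of 5 libraries. In the panels of Gbp7, Irgm1, Tap1 and Irf1 both Jak1KO groups sit together below the WT IgG1 group, and the WT aPD1 point nearest to the IgG1 points is replicate 4.

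Type I interferon genes had differences on both sides of 0. Of 26 genes such as Usp18, Oasl2 and Ifit3b, 10 had a negative and 16 a positive difference, with a median of 0.11 and a range of -0.42 to 0.68. None had an unadjusted p under 0.05 in either direction, and none passed the test for the aPD1 effect in either genotype. Usp18, which damps the type I receptor, gave 0.68 ± 0.41. Oasl2, an antiviral oligoadenylate synthetase-like protein, gave -0.42 ± 0.26. The level of the list was itself lower without Jak1: its summed level was 806 to 1050 CPM in Jak1KO aPD1 and 720 to 847 CPM in Jak1KO IgG1 libraries, against 2380 to 3150 CPM in WT aPD1 and 1690 to 3850 CPM in WT IgG1 libraries. The median of this list moved between -0.17 and 0.12 over the alternative settings.

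Signalling genes around JAK1 were mixed. Among 24 genes for interferon receptors, JAKs, STATs and their feedback inhibitors, 4 had an unadjusted p under 0.05, all lower (5.29% of all genes), and the median difference was -0.23. Socs1, a feedback inhibitor of JAK kinases, gave -1.05 ± 0.27 and rose in WT tumours by 0.99 ± 0.19 (edgeR adjusted p = 0.00296). Cish, a feedback inhibitor induced by STAT5, gave -1.57 ± 0.48. Receptors that use JAK1 had a median of -0.67, with 9 of 21 lower at an unadjusted p under 0.05. Il15ra, the receptor chain that presents IL-15, gave -0.70 ± 0.18. Il2rg, the common gamma chain, gave -1.25 ± 0.32, and Il10ra, the IL-10 receptor chain, gave -1.18 ± 0.36. All 3 rose in WT tumours (effects of 0.58, 1.41 and 1.15), and their Jak1KO effects were between -0.12 and 0.16.

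Antigen presentation genes had mostly negative differences as well. In the MHC class I and peptide loading list 21 of 24 had a negative difference, the median was -0.46, and 11 were lower at an unadjusted p under 0.05 (5.29% of all genes). DESeq2 called 2 of the 24, edgeR without WT aPD1 replicate 4 called 4, and voom with weights called 16 with a median of -0.71. In these settings 0.264%, 0.753% and 3.02% of all genes were called lower. Tap1, a subunit of the peptide transporter (chr17:34187553-34197225), measured 137, 85.3, 105, 84.3 and 121 CPM in Jak1KO aPD1 libraries and 112, 94.3, 103, 105 and 115 CPM in Jak1KO IgG1 libraries. It measured 394, 450, 455, 251 and 425 CPM in WT aPD1 libraries and 196, 179, 241, 257 and 145 CPM in WT IgG1 libraries. The Jak1KO groups overlapped, and replicate 4 was the one WT aPD1 library inside the IgG1 range. The difference was -0.95 ± 0.22, made of 0.01 ± 0.15 in Jak1KO and 0.96 ± 0.15 in WT tumours. Tap2, the other subunit, gave -0.61 ± 0.15, and Nlrc5, the transactivator of MHC class I genes, gave -1.48 ± 0.40. B2m itself, the class I light chain, gave -0.51 ± 0.27 (95% interval -1.06 to 0.03). It was lower in Jak1KO than in WT tumours under both antibodies (log2 difference -1.87 ± 0.19 with aPD1 and -1.36 ± 0.19 with IgG1, edgeR adjusted p = 3.71e-08 and 7.42e-06).

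MHC class II genes, which mark antigen-presenting cells, had a median difference of -1.97, all 10 being negative and 8 lower at an unadjusted p under 0.05. Ciita, the master activator of the class, measured 28.3, 1.48, 5.65, 3.2 and 12.1 CPM in Jak1KO aPD1 libraries and 21.8, 1.85, 8.14, 3.37 and 15.4 CPM in Jak1KO IgG1 libraries. It measured 50.6, 85.3, 38.9, 6.78 and 47.6 CPM in WT aPD1 libraries and 2.74, 8.35, 7.22, 8.82 and 4 CPM in WT IgG1 libraries. Replicates 1 and 5 were high in both Jak1KO groups, so the spread inside each group was wide, and WT aPD1 replicate 4 again fell among the IgG1 values. The Ciita difference was -2.87 ± 0.92 (edgeR adjusted p = 0.314). Cd74, the invariant chain, gave -2.85 ± 1.01, and H2-DMa, a peptide exchange factor, gave -1.62 ± 0.57.

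**Figure D3:**
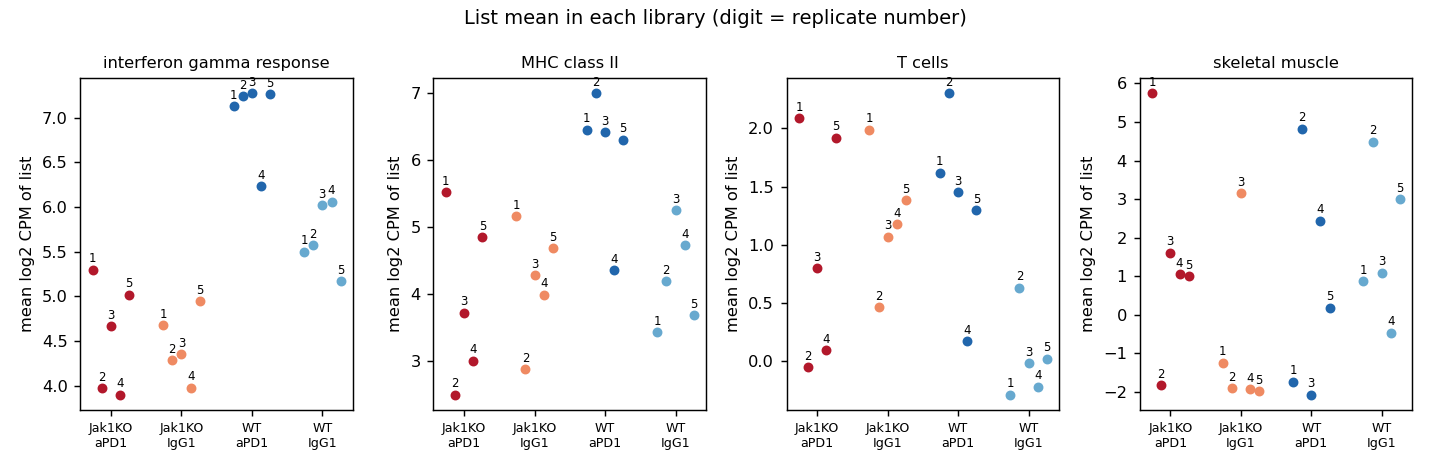
Mean log2 CPM over the members of 4 gene lists in each library (y axis), by group, with the replicate number above each point. In the interferon gamma panel 4 WT aPD1 libraries lie at 7.13 to 7.27 and replicate 4 at 6.23, above all WT IgG1 libraries (at most 6.06) and all Jak1KO libraries (at most 5.30), whereas the skeletal muscle panel spreads widely inside every group.

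The ligands of PD-1, which are neighbours on chromosome 19, both ranked among the first 15 on the lower side. Cd274 (PD-L1, chr19:29367455-29388095) measured 46.2, 17.1, 25.4, 15.7 and 38 CPM in Jak1KO aPD1 libraries and 25.8, 23.8, 20.8, 28.7 and 32 CPM in Jak1KO IgG1 libraries. It measured 197, 161, 139, 59.4 and 177 CPM in WT aPD1 libraries and 33.6, 34.2, 41.6, 52.6 and 26.2 CPM in WT IgG1 libraries. All WT aPD1 libraries lay above all WT IgG1 libraries, and the Jak1KO groups overlapped. The effect was 0.12 ± 0.28 in Jak1KO and 1.96 ± 0.29 in WT tumours (edgeR adjusted p = 0.000956), a difference of -1.84 ± 0.40 (95% interval -2.67 to -1.02).

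Pdcd1lg2 (PD-L2, chr19:29410919-29471161), a neighbour of Cd274 made chiefly by myeloid cells, was rarer. It measured 1.2, 0.198, 0.614, 0.0969 and 1.22 CPM in Jak1KO aPD1 libraries and 0.93, 0.6, 0.847, 0.692 and 1 CPM in Jak1KO IgG1 libraries. It measured 7.11, 5.81, 4.07, 0.518 and 3.03 CPM in WT aPD1 libraries and 0.464, 0.332, 0.5, 0.258 and 0.308 CPM in WT IgG1 libraries. The WT groups were separated by a narrow gap at replicate 4 (0.518 against at most 0.5 CPM). The difference was -3.68 ± 0.88 (95% interval -5.48 to -1.88), the most negative among the 15 genes ranked first on the lower side. Over the checkpoint and exhaustion list, 14 of 17 genes were negative with a median of -1.44, and 10 were lower at an unadjusted p under 0.05. Entpd1 (CD39), an ectonucleotidase, gave -1.44 ± 0.38. Pdcd1 (PD-1) gave -2.16 ± 0.78 and rose in WT tumours by 2.26 ± 0.58 (edgeR adjusted p = 0.0224).

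**Figure D4:**
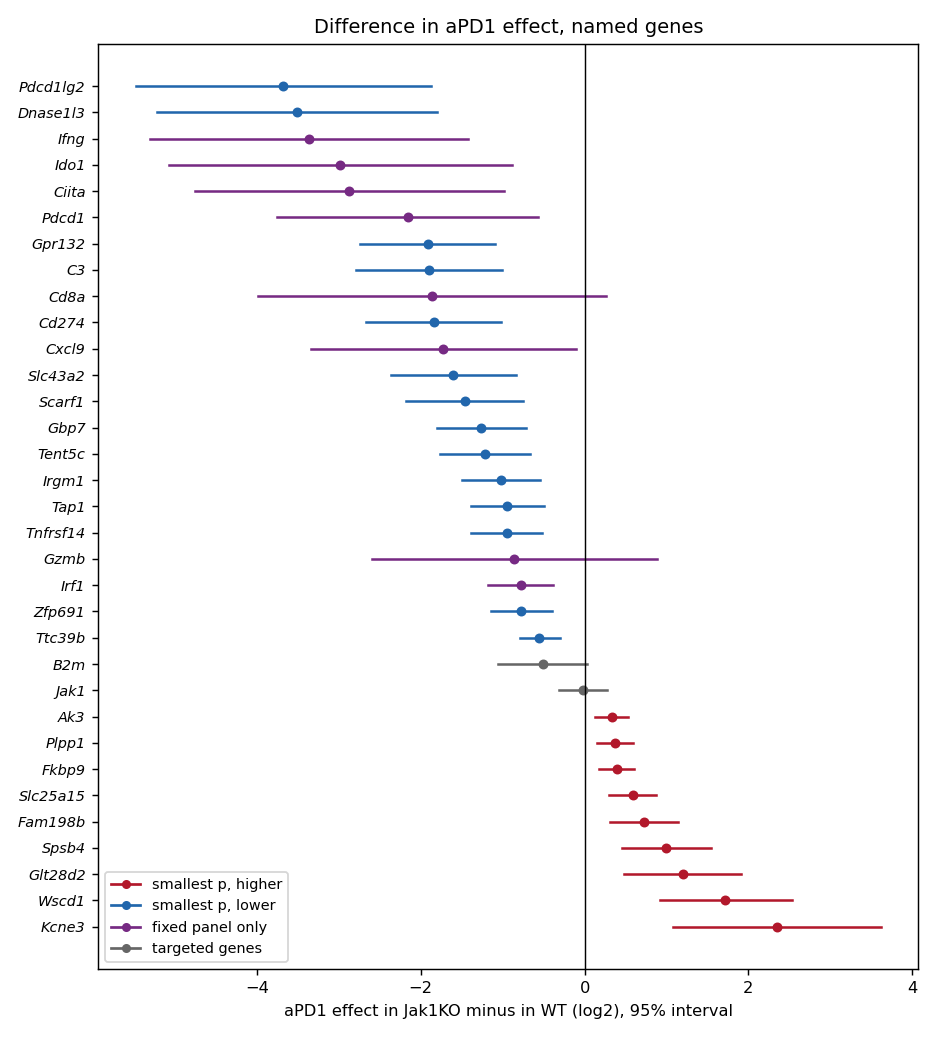
Difference in aPD1 effect (Jak1KO minus WT, log2, x axis) for the named genes, with its 95% interval as a bar, coloured by whether the gene was named for its rank, as one of a fixed panel or as a targeted gene. Myh7 is left out for its width; the intervals of Cd8a and Gzmb cross 0, as do those of B2m and Jak1, and those of the other genes shown do not.

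Interferon gamma itself and the cytotoxic genes had negative differences with wide intervals. Ifng measured 3.21, 0.148, 0.92, 0.0484 and 1.87 CPM in Jak1KO aPD1 libraries and 1.48, 0.45, 0.423, 0.0923 and 1.88 CPM in Jak1KO IgG1 libraries. It measured 4.91, 5.15, 5.43, 0.753 and 3.43 CPM in WT aPD1 libraries and 0.211, 0.166, 0.389, 0.413 and 0.132 CPM in WT IgG1 libraries. The WT groups did not overlap, and the Jak1KO groups overlapped over a wide range. The Ifng effect was 0.55 ± 0.60 in Jak1KO and 3.91 ± 0.67 in WT tumours, and the difference was -3.36 ± 0.95 (95% interval -5.30 to -1.42, edgeR adjusted p = 0.224). All 21 genes of the cytotoxic list were negative, with a median of -1.06, and 7 were lower at an unadjusted p under 0.05 (5.29% of all genes). With sample quality weights in voom the median was -2.30 and 3 were called, beside 3.02% of all genes called lower and 0.484% higher. Slamf7, an activating receptor of NK and T cells, gave -1.58 ± 0.48, and Tbx21, the transcription factor of interferon gamma producing T cells, gave -2.04 ± 0.69.

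Granzyme B varied widely among the Jak1KO aPD1 libraries. Gzmb, a protease of killer cells, measured 41.7, 2.92, 10.1, 2.81 and 27.1 CPM in Jak1KO aPD1 libraries and 7.06, 5.4, 7.01, 3.37 and 8.24 CPM in Jak1KO IgG1 libraries. It measured 49.3, 58.6, 49.3, 12.5 and 41.7 CPM in WT aPD1 libraries and 7.42, 3.6, 19.3, 8 and 4.57 CPM in WT IgG1 libraries. Replicates 1, 3 and 5 of Jak1KO aPD1 lay above all Jak1KO IgG1 libraries and replicates 2 and 4 below them. The effect was 1.45 ± 0.61 in Jak1KO and 2.31 ± 0.61 in WT tumours, and the difference of -0.86 ± 0.85 had an interval of -2.60 to 0.88. It was -1.51 without Jak1KO aPD1 replicate 1, -1.38 without WT IgG1 replicate 3, -1.62 in voom and -2.54 in voom with weights. The edgeR adjusted p was 0.796, and granzyme genes have close copies that can share reads.

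T cell markers had negative differences too. Of 22 T cell genes, 21 had a negative difference with a median of -1.65, and 15 were lower at an unadjusted p under 0.05. Their summed level was 55.7 to 144 CPM in Jak1KO aPD1 and 65.5 to 130 CPM in Jak1KO IgG1 libraries, against 72.9 to 153 CPM in WT aPD1 and 49.5 to 74.6 CPM in WT IgG1 libraries. Lat, an adaptor of the T cell receptor, gave -1.93 ± 0.61, and Trbc1, a receptor constant chain, gave -2.10 ± 0.69. Cd8a, which marks cytotoxic T cells, gave -1.86 ± 1.04 with an interval of -3.99 to 0.26, and its WT effect of 1.74 ± 0.77 did not pass (edgeR adjusted p = 0.232). The part of these cell markers in the interferon differences was not tested. Regulatory T cell genes had a median of -1.25, with 6 of 8 negative and 2 positive (up to 0.11). Of the 8, 5 were lower at an unadjusted p under 0.05, among them Tnfrsf4 (OX40) at -1.39 ± 0.41, Ctla4 at -2.43 ± 0.78 and Ikzf4 (Eos) at -1.39 ± 0.45. NK cell genes had a median of -1.36, and none of the 12 reached an unadjusted p under 0.05.

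Chemokines and receptors of the T cell axes had a median difference of -0.63, with 13 of 19 negative, 6 positive (up to 0.69) and 5 lower at an unadjusted p under 0.05 (5.29% of all genes). Cxcl9, an interferon gamma-induced ligand of CXCR3, measured 262, 27, 68.1, 16.8 and 180 CPM in Jak1KO aPD1 libraries and 139, 40.1, 55, 32.2 and 217 CPM in Jak1KO IgG1 libraries. It measured 300, 425, 478, 150 and 331 CPM in WT aPD1 libraries and 61.9, 94.2, 124, 91.8 and 71.4 CPM in WT IgG1 libraries. Within Jak1KO tumours the level varied more between libraries than between antibodies, and replicates 1 and 5 were high under both. The Cxcl9 difference was -1.73 ± 0.79 (edgeR adjusted p = 0.564), and its WT effect of 1.93 ± 0.57 had an edgeR adjusted p of 0.0505. Ccl5, a chemokine made by activated T cells, gave -1.28 ± 0.46, Cxcl16, the ligand of CXCR6, had an interval of -1.79 to -0.22, and Cxcl10 gave -0.63 ± 0.27.

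Myeloid markers had negative medians. Macrophage and monocyte genes had a median of -0.52, with 18 of 22 negative and 4 positive (up to 0.82). Of the 22, 5 were lower at an unadjusted p under 0.05 (5.29% of all genes). With sample quality weights in voom the median was -0.85 and 9 were called, beside 3.02% of all genes called lower and 0.484% higher. Csf1r, the receptor that keeps macrophages alive, gave -0.94 ± 0.34, and Itgam (CD11b) gave -0.83 ± 0.33. Neutrophil genes had a median of -0.49 (-0.99 in voom with weights and -0.88 with the groups of the contrast alone). Of the 14, 11 were negative and 3 positive (up to 0.62), and 6 were lower at an unadjusted p under 0.05. Among those 6 were Csf3r, the receptor for G-CSF, at -1.76 ± 0.46, Mmp25 at -1.88 ± 0.57 and Clec4d at -1.47 ± 0.48. Dendritic cell genes were split, 6 of 11 negative and 5 positive (up to 0.56), with a median of -0.37 (-0.23 in voom with weights), and 2 were lower at an unadjusted p under 0.05. Those 2 were Itgax and Clec9a: Itgax (CD11c) gave -1.36 ± 0.41 and Clec9a, a receptor of cross-presenting cells, gave -1.71 ± 0.55.

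Other genes ranked first on the lower side had roles outside the classical interferon lists. Gpr132, a G protein-coupled receptor of leukocytes, measured 4.5, 2.62, 3.24, 2.71 and 4.13 CPM in Jak1KO aPD1 libraries and 4.49, 2.5, 3.06, 6.74 and 4.06 CPM in Jak1KO IgG1 libraries. It measured 12, 14.9, 9.46, 3.53 and 9.02 CPM in WT aPD1 libraries and 2.15, 3.54, 3.06, 4.59 and 2.46 CPM in WT IgG1 libraries. Without overlap apart from WT aPD1 replicate 4, the difference was -1.91 ± 0.40. Dnase1l3, a secreted nuclease of myeloid cells, measured 7.49, 0.742, 2.32, 0.387 and 3.39 CPM in Jak1KO aPD1 libraries and 4.65, 1.2, 1.79, 0.923 and 6.02 CPM in Jak1KO IgG1 libraries. It measured 43.2, 48.5, 37.8, 4.14 and 27.2 CPM in WT aPD1 libraries and 1.22, 2.54, 4.56, 3.87 and 2.15 CPM in WT IgG1 libraries. Its difference of -3.51 ± 0.84 rested on 4 high WT aPD1 libraries, with replicate 4 inside the WT IgG1 range. Tent5c, a poly(A) polymerase, gave -1.22 ± 0.27. Tnfrsf14 (HVEM), the ligand of BTLA, gave -0.95 ± 0.21, and Slc43a2, an amino acid transporter, gave -1.60 ± 0.37. Scarf1, a scavenger receptor, gave -1.46 ± 0.35, Zfp691, a zinc finger protein, gave -0.77 ± 0.18, and Ttc39b gave -0.55 ± 0.12. In 14 of the 15 genes ranked first on the lower side, WT aPD1 replicate 4 was the lowest library of its group. All 15 were among the calls of DESeq2, of voom with weights and of edgeR without that library, which use the same data.

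The series is titled for protease dysregulation, and the protease lists were followed for it. Complement and coagulation genes had a median of -0.36 (-0.56 in voom with weights), with 11 of 16 negative, 5 positive and 3 lower at an unadjusted p under 0.05 (5.29% of all genes). C3, the central complement component, measured 113, 44.8, 70.4, 56.9 and 102 CPM in Jak1KO aPD1 libraries and 80.3, 113, 67.6, 69.5 and 91 CPM in Jak1KO IgG1 libraries. It measured 156, 268, 114, 61 and 158 CPM in WT aPD1 libraries and 46.1, 43.4, 27, 73.4 and 31.3 CPM in WT IgG1 libraries. In WT IgG1 tumours C3 stood below most Jak1KO libraries, and with aPD1 it stood above all Jak1KO libraries in 4 of 5 cases. The difference was -1.90 ± 0.43 (95% interval -2.79 to -1.01), made of -0.12 ± 0.30 in Jak1KO and 1.78 ± 0.31 in WT tumours. C4b gave -1.38 ± 0.46 and Cfb, a protease of the alternative pathway, gave -1.29 ± 0.62.

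The 15 genes for cathepsins and legumain had a median of -0.16, with 11 negative and 4 positive (up to 2.02). At an unadjusted p under 0.05, 4 were lower, led by Ctss, the cathepsin that cleaves the invariant chain, at -1.26 ± 0.43. Ctsw, of cytotoxic cells, gave -1.08 ± 0.49 and Ctsz gave -0.31 ± 0.14. Of 16 matrix metalloproteinases, Mmp25, a neutrophil enzyme, was the one with an unadjusted p under 0.05, and Mmp17 (0.91 ± 0.49) and Mmp15 (0.88 ± 0.49) were next. That list had 7 negative and 9 positive differences, with a median of 0.08. None of 23 ADAM and ADAMTS genes reached an unadjusted p under 0.05. The 20 cell-surface and cytosolic peptidases had a median of -0.08, with 13 negative and 7 positive. At an unadjusted p under 0.05, 2 were lower (5.29% of all genes) and 1 higher (3.01% of all genes). Of these peptidases, Anpep (CD13), an aminopeptidase of myeloid cells, gave -1.37 ± 0.38. Erap1, which trims class I peptides, gave -0.29 ± 0.11, and Fap, of fibroblasts, gave 1.32 ± 0.50.

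Of 20 genes of the plasminogen system and other serine proteases, 11 had a positive and 9 a negative difference, a split close to that of all genes (8211 positive and 7294 negative). Of the 20, 4 were higher at an unadjusted p under 0.05 (3.01% of all genes) and 1 lower. Plat, tissue plasminogen activator, measured 44.1, 46.8, 41.7, 38.8 and 50.4 CPM in Jak1KO aPD1 libraries and 37.4, 44.2, 34.4, 42.7 and 42.2 CPM in Jak1KO IgG1 libraries. It measured 64.5, 65.5, 68.4, 76.3 and 66.2 CPM in WT aPD1 libraries and 94.9, 79.8, 154, 74 and 98.5 CPM in WT IgG1 libraries, the 154 being the replicate that stands apart. Plat fell in WT tumours by 0.55 ± 0.15 on the log2 scale (edgeR adjusted p = 0.0343), and the difference was 0.70 ± 0.22. Plau, urokinase, gave 0.84 ± 0.29, and Prss23 gave 0.55 ± 0.19. Without WT IgG1 replicate 3 the differences were 0.49 in Plat, 0.78 in Plau and 0.62 in Prss23. In the list of inhibitors 10 of 20 were negative and 10 positive, with a median of -0.08. At an unadjusted p under 0.05, 6 of these 20 were lower and 1 higher. Serpina3f, an interferon-responsive serpin, gave -2.32 ± 0.71 and Spint2, a Kunitz inhibitor, gave -1.69 ± 0.60, against 0.64 ± 0.19 for Serpinh1, the collagen chaperone. The Serpinh1 value was 0.47 without WT IgG1 replicate 3.

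Matrix genes had mostly positive differences. In the fibroblast and collagen list 19 of 25 had a positive difference with a median of 0.38, and 8 were higher at an unadjusted p under 0.05, beside 3.01% of all genes. Their summed level was 27300 to 29800 CPM in Jak1KO aPD1 and 24300 to 31800 CPM in Jak1KO IgG1 libraries, against 19100 to 36900 CPM in WT aPD1 and 16600 to 42900 CPM in WT IgG1 libraries. Mfap4, a microfibril protein, gave 1.51 ± 0.48, Aspn, a collagen-binding proteoglycan, 1.48 ± 0.48, and Sparc, a matrix glycoprotein, 0.65 ± 0.21. Mfap4 and Aspn fell in WT tumours (-1.19 ± 0.35 and -1.17 ± 0.34), where Sparc had an effect of -0.44 ± 0.15 that did not pass. Without WT IgG1 replicate 3, which stands apart, the difference was 1.51 in Mfap4, 1.11 in Aspn and 0.5 in Sparc. Unfolded protein and stress response genes had 16 of 18 positive values (median 0.19), and 2 were higher at an unadjusted p under 0.05. Pdia6 gave 0.39 ± 0.15, Hspa5 0.39 ± 0.18 and Herpud1 0.33 ± 0.17. Without WT IgG1 replicate 3 these differences were 0.25, 0.22 and 0.24, the lowest with any 1 library left out. Of 18 hypoxia and glycolysis genes, 1 was higher at an unadjusted p under 0.05, and the list median was 0.33. Mitosis genes (24) and endothelial genes (16) had medians of 0.06 and 0.17 (0.49 for the endothelial genes in voom with weights), and none reached an unadjusted p under 0.05. Genes of pyroptosis and nucleic acid sensing had a median of -0.30 (-0.66 in voom with weights), with 21 of 25 negative and 4 positive (up to 1.31). At an unadjusted p under 0.05, 4 were lower (5.29% of all genes) and 1 higher (3.01% of all genes). Nlrp3, the inflammasome sensor, gave -1.20 ± 0.33, Il1b -1.75 ± 0.61 and Tlr9 -1.62 ± 0.58.

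**Figure D5:**
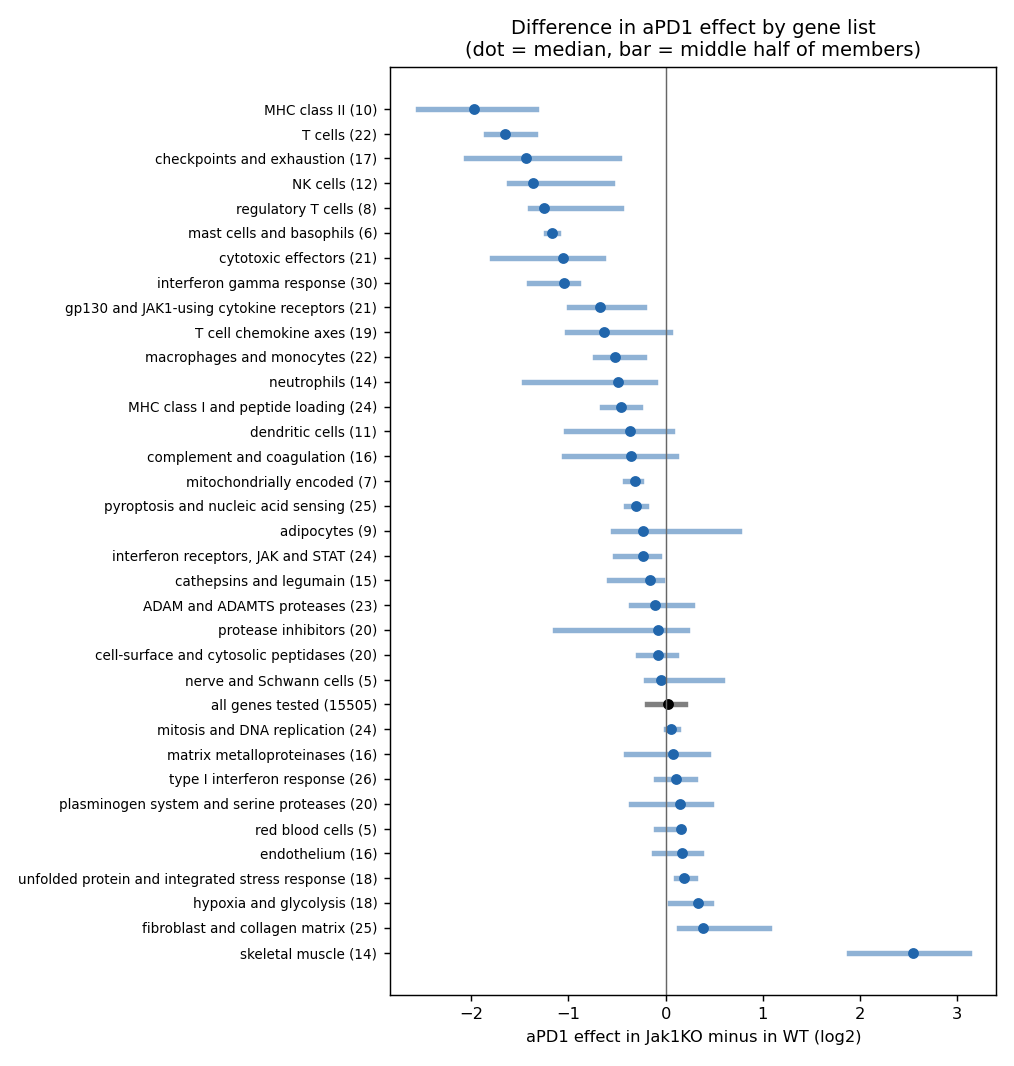
Median difference in aPD1 effect (Jak1KO minus WT, log2; dots) and the middle 50% of members (bars) for gene lists with at least 5 expressed genes, the number of genes in brackets and all genes in black. Epithelial genes are left out because 4 of the 7 had almost no reads in a group; MHC class II, T cell, checkpoint and interferon gamma lists lie on the negative side and skeletal muscle on the positive side.

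Of the 10 genes ranked first on the higher side, 8 passed the test in WT tumours with negative aPD1 effects, beside 0.632% of all genes. The WT effect enters the difference by which they were ranked, so this count is no separate evidence. Kcne3, a potassium channel subunit, measured 1.2, 1.73, 1.31, 2.95 and 1.56 CPM in Jak1KO aPD1 libraries and 1.26, 1.45, 2.16, 3.19 and 1.3 CPM in Jak1KO IgG1 libraries. It measured 0.221, 0.429, 0.724, 1.55 and 0.433 CPM in WT aPD1 libraries and 5.02, 4.54, 4.72, 2.06 and 2.42 CPM in WT IgG1 libraries. The WT groups did not overlap, with aPD1 below, and the Jak1KO groups did. The effect was -0.11 ± 0.42 in Jak1KO and -2.46 ± 0.45 in WT tumours (edgeR adjusted p = 0.00236), a difference of 2.35 ± 0.62. Wscd1 gave 1.72 ± 0.39 and fell in WT tumours by 1.46 ± 0.28 on the log2 scale (edgeR adjusted p = 0.00335).

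Slc25a15, the mitochondrial ornithine carrier, had effects of opposite sign in the genotypes. It measured 24, 23.7, 23.3, 24.1 and 23.1 CPM in Jak1KO aPD1 libraries and 22.5, 20.7, 20, 19.9 and 21.8 CPM in Jak1KO IgG1 libraries. It measured 17, 19.6, 17.4, 16.2 and 16.5 CPM in WT aPD1 libraries and 24.1, 22.9, 28.6, 17.9 and 22.1 CPM in WT IgG1 libraries. Every Jak1KO aPD1 library was above every Jak1KO IgG1 library, as in 0.187% of all genes, though the effect was 0.17 ± 0.10 and did not pass. In WT tumours it fell by 0.42 ± 0.10 on the log2 scale, and the difference was 0.59 ± 0.14 (edgeR adjusted p = 0.195). Fkbp9, a prolyl isomerase of the endoplasmic reticulum, gave 0.39 ± 0.10, Spsb4, a SOCS-box protein, 1.00 ± 0.26, and Fam198b 0.72 ± 0.20. Plpp1, a lipid phosphatase, gave 0.37 ± 0.11, Ak3, a mitochondrial adenylate kinase family member, 0.33 ± 0.10, and Glt28d2 1.20 ± 0.35. Of the 10 genes ranked first on this side, DESeq2 called 4, voom with weights 8 and edgeR without WT aPD1 replicate 4 called 4. In these settings 0.0387%, 0.484% and 0.0574% of all genes were called higher. The 10 were ranked on the same difference in the same data, so these counts are no separate evidence.

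Skeletal muscle genes all had positive differences. The 14 muscle genes had a median difference of 2.54 (4.78 in voom with weights), and 1 was higher at an unadjusted p under 0.05. Their summed level was 6.48 to 1230 CPM in Jak1KO aPD1 and 5.06 to 205 CPM in Jak1KO IgG1 libraries, against 4.63 to 590 CPM in WT aPD1 and 14 to 707 CPM in WT IgG1 libraries. Myh2, a fast myosin heavy chain, measured 73.9, 0, 8.77, 2.13 and 2.56 CPM in Jak1KO aPD1 libraries and 0.164, 0, 4.89, 0 and 0 CPM in Jak1KO IgG1 libraries. It measured 0, 29.4, 0, 1.41 and 0.787 CPM in WT aPD1 libraries and 0.295, 80.8, 0.556, 0.413 and 12.2 CPM in WT IgG1 libraries. Each group held 1 library well above its others, and the groups overlapped. The difference in Myh2 was 5.67 ± 2.46, and it was 3.31 without Jak1KO aPD1 replicate 1, 10.28 without Jak1KO IgG1 replicate 3, 9.12 without WT aPD1 replicate 2 and 3.23 without WT IgG1 replicate 2. Tnni2, a fast troponin, gave 1.80 ± 1.02, which became 0.48 without Jak1KO aPD1 replicate 1, 3.05 without WT aPD1 replicate 2 and 1.19 without WT IgG1 replicate 2. Ckm, muscle creatine kinase, gave 3.30 ± 1.98, which turned to -0.13 without Jak1KO aPD1 replicate 1 and was 8.2 without Jak1KO IgG1 replicate 3 and 5.46 without WT aPD1 replicate 2. Myh7, the slow myosin, ranked among the first on the higher side at 9.11 ± 2.54, with 42.8 CPM in WT IgG1 replicate 2 and at most 3.13 CPM in every other library of the 4 groups. It was 4.61 without WT IgG1 replicate 2, and with 6 reads in all in Jak1KO IgG1 libraries its fitted size is not a bound.

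Epithelial genes were sparse too. The 7 of 10 that passed the filter on low counts had negative differences, and 5 were lower at an unadjusted p under 0.05, and DESeq2 called Epcam, an adhesion protein of epithelia (DESeq2 adjusted p = 0.0436, edgeR adjusted p = 0.213). Epcam gave 8 reads in all in Jak1KO aPD1 libraries and 5 in WT IgG1 libraries, so no fold is given for it. Krt8, a keratin, gave 0.0428, 0.0495, 0, 0 and 0 CPM in Jak1KO aPD1 libraries and 1.7, 0.0999, 0, 0.323 and 1.88 CPM in Jak1KO IgG1 libraries. In WT tumours it gave 0.11, 0, 4.26, 0.0942 and 0.0787 CPM with aPD1 and 0.0422, 0.221, 0.0556, 0.103 and 0.0879 CPM with IgG1. Single libraries held most of its reads, replicates 1 and 5 of Jak1KO IgG1 and replicate 3 of WT aPD1. Cdh1 (E-cadherin), chosen after its values were seen, measured 4.15, 1.53, 2.76, 1.94 and 3.87 CPM in Jak1KO aPD1 libraries and 3.72, 2.95, 2.63, 1.71 and 4.35 CPM in Jak1KO IgG1 libraries. It measured 14, 9.77, 15.4, 6.55 and 14 CPM in WT aPD1 libraries and 4.94, 4.37, 4.28, 5.73 and 5.63 CPM in WT IgG1 libraries. The WT groups did not overlap and the Jak1KO groups did. Cdh1 rose in WT tumours by 1.26 ± 0.29 (edgeR adjusted p = 0.011), and the difference was -1.35 ± 0.43 (edgeR adjusted p = 0.314).

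The aPD1 effect in Jak1KO tumours was also set against that in B2mKO tumours, whose cells lack the class I light chain. The WT libraries do not enter this difference. In edgeR's test 0 genes (0%) passed, the smallest adjusted p being 0.994, and 310 had an unadjusted p under 0.05. The count was also 0 by DESeq2, by limma voom with or without weights and with each library left out in turn. Cd274 differed by 0.36 ± 0.40 (95% interval -0.46 to 1.18) and Gbp7 by 0.24 ± 0.26 (-0.30 to 0.78). The aPD1 effect in B2mKO tumours was -0.24 ± 0.28 for Cd274 and -0.33 ± 0.18 for Gbp7. The median of this difference over the interferon gamma list was 0.26, and over the MHC class II list -0.67. The median effects of these lists in B2mKO tumours were -0.08 and 0.62. A p that misses the threshold does not show that both genotypes respond alike, and for Ifng the interval of -3.79 to 2.37 spans 0 widely on both sides.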

How the data were processed

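Bulk RNA from 30 tumour samples, 5 in each of 6 groups, was sequenced as paired ends after a TruSeq preparation. The authors deposited read counts per gene, made with featureCounts 2.0.0 on Ensembl GRCm38 release 99, per the file headers. The recorded command sets no strand, multi-mapping or read-pair option, so reads of overlapping or antisense genes cannot be told apart by strand. The tools listed in the submitters' processing notes are the aligner STAR (2.5.2a), FastQC (0.11.2), edgeR (3.24.3) and Cufflinks (2.2.1), with the build mm10, and the filters before counting are not given in the sources used here.

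The deposited counts were tested with edgeR 4.0.16 in R 4.3.3 (TMM scaling, quasi-likelihood test, no robust option), with 1 coefficient per group over all 30 libraries, so that all groups share 1 estimate of the spread. Genes were kept by filterByExpr (minimum count 10, minimum total 15). P-values were adjusted by the Benjamini-Hochberg method over all 15505 genes, with a threshold of 0.05. CPM values are scaled by TMM, SEs are of log2 fold changes, and the log2 levels add a prior count of 2. Gene IDs without a symbol (327 of 55471) made up 0.047% of the counts.

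The named genes were Jak1 and B2m, up to 15 genes on the lower and 10 on the higher side with the smallest unadjusted p and a mean of at least 1 CPM in a group, the 3 with the smallest p in each list described, and a panel of 10, apart from a few items that are not reported here. The 37 lists hold 642 genes, of which 576 were tested. The members and lists were chosen with earlier results of these data known. Promoters came from RefSeq (GRCm38.p6).

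Alternatives were DESeq2 1.42.0 and its size factors, limma 3.58.1 voom with and without sample quality weights, edgeR with robust estimation, no filter, the groups of the contrast alone, a replicate block, and each library left out. The classic form of edgeR's quasi-likelihood test was added after seeing the data. On simulated counts with 15300 genes tested, the difference was called in 19.7%, 38.5% and 87.9% of genes changed 1.5-fold, 2-fold and 4-fold. Of the 106 calls made there, 10 were false. Each share rests on 65 or 66 genes and holds for that simulation only. In the tumour libraries, Pdcd1lg2 (-3.68) and Dnase1l3 (-3.51) had larger estimates and were not called (edgeR adjusted p = 0.195 for both). The shares therefore cannot be read as the power of the test in these tumours. All 60 replicate pairs differed by more than counting noise, with a chi-square of 6.49 to 206 for each degree of freedom.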

Additional observations from a re-analysis of the deposited data

Results flagged for a closer look

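In 140 checks of a group of 5 libraries for 1 library far from the others, 11 met the limit (a gap of over 0.71 of the group's range), and chance gives about 1 in 20. The cause was not tested for any of them.

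WT aPD1 replicate 4 was the far library in 4 of the 11, each time on the low side, in log2 CPM. Its level was 7.97 for Tap1 (others 8.62 to 8.83). It was 2.08 for Dnase1l3 (others 4.77 to 5.60) and -0.24 for Ifng (others 1.82 to 2.47). It was 3.66 for Gzmb (others 5.39 to 5.87). These genes share the library, so the 4 are not independent.

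WT IgG1 replicate 3 was low for Jak1, at 7.51 log2 CPM (others 7.90 to 8.00). It was also far from its group over all genes, with a median distance of 0.532 log2 CPM (others 0.164 to 0.215). Jak1KO IgG1 replicate 3 was the closest to its group, at 0.114 log2 CPM (others 0.136 to 0.144).

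Single Jak1KO libraries stood apart at 4 genes. Tent5c was 2.86 log2 CPM in Jak1KO aPD1 replicate 4 (others 3.25 to 3.37), and Plpp1 was 4.93 log2 CPM in Jak1KO aPD1 replicate 5 (others 4.71 to 4.74). Tnfrsf14 was 3.77 log2 CPM in Jak1KO IgG1 replicate 2 (others 4.26 to 4.41), and Fkbp9 was 8.41 log2 CPM in Jak1KO IgG1 replicate 4 (others 8.25 to 8.29).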

How the results depend on the processing

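The number of genes called for the difference, 0 in edgeR, was 47 in DESeq2 and 544 in limma voom with sample quality weights. It was 0 to 127 with each library left out in turn, 127 without WT aPD1 replicate 4 and 10 without WT IgG1 replicate 4. It stayed 0 with DESeq2's size factors in edgeR, without the filter, with robust estimation, in limma voom, with the groups of the contrast alone and in the classic quasi-likelihood test, which was chosen after seeing the data. The count for the WT effect, 679, was 1476 with sample quality weights, 63 with the groups of the contrast alone, and 229 to 1110 with a library left out: 366, 229, 1110 and 388 without WT aPD1 replicates 1, 2, 4 and 5, and 348 and 379 without WT IgG1 replicates 1 and 5. The counts for the Jak1KO effect and for Jak1KO against B2mKO were 0 throughout. The lower level of Jak1 and B2m in Jak1KO tumours kept its direction and call in every setting.

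The difference in Jak1 (-0.02) was 0.02 with sample quality weights, 0.06 without WT IgG1 replicate 3, also together with B2mKO aPD1 replicate 2, and 0.01 to 0.02 without Jak1KO aPD1 replicate 3 or 4 or Jak1KO IgG1 replicate 4, and over all left-out libraries it lay between -0.07 and 0.06. That in Ckm (3.30) was -0.13 without Jak1KO aPD1 replicate 1 and at most 8.2, without Jak1KO IgG1 replicate 3. The cause was not tested.

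The replicate numbers were not taken to pair the libraries: 7 of 30 same-numbered pairs had a correlation over 0.1 (-0.587 to 0.464). Between the Jak1KO groups 4 of 5 had one (0.0944 to 0.355), which falls short of every pair, and 6 of 20 libraries correlated best with their own number. With the replicate number as a block the difference had 0 calls (smallest edgeR adjusted p = 0.274). That block fits 1 shift per number common to all groups, so it cannot decide on a pairing inside the Jak1KO groups alone.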
